A study of Mus musculus with 7 samples.

Results

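The genes Ap1s2, Piga, Mospd2 and Hccs near the far end of the mouse X chromosome were described through the open chromatin of the 6 Mb window that holds them, chromosome X from 160 to 166 Mb in mm9. Peaks were taken by position, and the peak at each gene start was the one nearest to the start position given with the rule, at most 2 kb away. The window and the 4 genes had been chosen by measured values, the allelic read shares of wild-type and deltaFT neural progenitors. The window held 69 of 37270 peaks in deltaFT neural progenitor cells (NPC), 84 of 41126 in wild-type NPC and 68 of 28907 in embryonic stem cells (mESC). In male mESC with inducible Xist (TXY) it held 181 of 142526 peaks in deltaRepA cells with doxycycline (dox) and 185 of 129055 without it. In TXY wild type it held 85 of 125498 peaks with dox and 161 of 139825 without it.

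Open chromatin was measured by ATAC-seq, in which the Tn5 transposase inserts sequencing adapters into accessible DNA. The female samples were the deltaFT NPC line sgdgb2, the wild-type NPC line C2 and the wild-type mESC line F1216, all F1 hybrids of 129S1 and Cast:EiJ. NPC were grown with FGF and EGF, mESC in serum with mLIF. The TXY samples came from male J1 cells whose single X carries an inducible Xist, either with a deletion of its A repeat (deltaRepA) or intact. The dox samples had 2 ug/mL for 48 hours and the others none. Each group was 1 sample from 1 line, so no test between groups was possible and no p-value is given. A difference between the NPC lines and an effect of the deltaFT deletion cannot be told apart. Intervals are exact Clopper-Pearson 95% intervals and cover counting error only.

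In female mammals most genes of one X chromosome are silenced early in development, when the long RNA Xist coats that chromosome and its chromatin closes. Some genes escape and are read from both X chromosomes; a number do so in nearly every cell type and others only in certain lines. The A repeat of Xist is known to be needed for gene silencing. The deltaFT deletion takes out the region around the Dxz4 repeat, the boundary between both large folded domains of the inactive X.

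The genes have separate jobs in the cell. Ap1s2 encodes a small subunit of the AP-1 adaptor, which sorts cargo into clathrin-coated vesicles. Piga encodes the catalytic subunit of the enzyme that starts the synthesis of GPI anchors, the lipids that hold many proteins on the cell surface. Mospd2 encodes a membrane protein of the endoplasmic reticulum that tethers it to other organelles. Hccs encodes the mitochondrial enzyme that attaches heme to cytochrome c. In the gene order of RefSeq (GRCm38.p6), 29 protein-coding genes lie between Ap1s2 and Hccs, Piga and Mospd2 among them. Between Piga and Mospd2 lie Asb11 and Asb9, and 17 genes separate Mospd2 from Hccs. No mm9 annotation was used, so peaks away from the 4 starts are named by position only.

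The RefSeq sequences of the 4 gene starts (GRCm38.p6, 250 bases before to 50 after the start, 5′ to 3′ on the gene's strand) are given because these starts are the named sites of the window. Ap1s2 lies at chrX:163908767-163909066 (+), Piga at chrX:164419530-164419829 (+), Mospd2 at chrX:164980326-164980625 (-) and Hccs at chrX:169320323-169320622 (-). These positions belong to GRCm38.p6 and are not comparable with the mm9 positions of the peaks. The letters are those of the C57BL/6J reference and not of 129S1 or Cast. Capitals mark matches on either strand to CCAAT, the CCAAT box, and to CCGGAAG, a core bound by ETS factors; no matches of the pair overlap.
Ap1s2: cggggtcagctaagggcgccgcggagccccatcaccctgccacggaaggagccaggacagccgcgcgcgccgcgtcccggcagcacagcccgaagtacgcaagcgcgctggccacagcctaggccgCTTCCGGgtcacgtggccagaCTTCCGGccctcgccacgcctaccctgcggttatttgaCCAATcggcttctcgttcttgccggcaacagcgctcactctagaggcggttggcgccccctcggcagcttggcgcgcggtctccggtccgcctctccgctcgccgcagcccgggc
Piga: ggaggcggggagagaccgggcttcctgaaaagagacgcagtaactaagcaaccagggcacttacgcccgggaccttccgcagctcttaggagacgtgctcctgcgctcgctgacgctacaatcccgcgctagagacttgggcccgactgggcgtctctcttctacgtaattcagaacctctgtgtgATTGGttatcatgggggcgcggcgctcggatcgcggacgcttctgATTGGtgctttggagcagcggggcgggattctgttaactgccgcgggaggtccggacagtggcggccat
Mospd2: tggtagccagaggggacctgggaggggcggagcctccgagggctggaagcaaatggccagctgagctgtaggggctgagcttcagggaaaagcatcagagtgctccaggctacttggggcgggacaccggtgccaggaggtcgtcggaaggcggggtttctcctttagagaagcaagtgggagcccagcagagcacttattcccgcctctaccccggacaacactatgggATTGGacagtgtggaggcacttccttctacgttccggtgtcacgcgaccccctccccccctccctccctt
Hccs: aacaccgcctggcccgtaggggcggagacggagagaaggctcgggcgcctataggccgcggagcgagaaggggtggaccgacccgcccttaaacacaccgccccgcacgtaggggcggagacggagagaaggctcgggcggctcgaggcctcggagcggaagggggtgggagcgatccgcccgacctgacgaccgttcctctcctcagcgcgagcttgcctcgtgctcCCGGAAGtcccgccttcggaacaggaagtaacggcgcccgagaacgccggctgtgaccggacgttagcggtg

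CCAAT was found once in Ap1s2 and in Mospd2, 2 times in Piga and 0 times in Hccs, and 37.4% of 32851 mouse start regions of this length hold it. CCGGAAG was found 2 times in Ap1s2 and 1 time in Hccs, against a share of 8.86% over all start regions. GGGCGG, the GC box, was found 6 times in Hccs, 2 in Mospd2, 1 in Piga and 0 in Ap1s2, and 35.7% of start regions hold it. GCCATNTT, a YY1 motif held by 6.05% of start regions, was found in none of the 4. The starts differed in CpG content, with 39 CpG in Ap1s2, 28 in Piga, 13 in Mospd2 and 40 in Hccs, next to a median of 7 over 1223 start regions of the X. Mospd2 therefore had the fewest CpG of the 4, although 69.6% of X start regions had fewer still. Motif matches are descriptions of these letters and not binding sites.

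At 3 of the 4 starts, Ap1s2, Piga and Hccs, nearly all allelic reads of deltaFT NPC came from one X chromosome. Wild-type NPC read both, about equally at Ap1s2 and Piga and with an excess of one at Hccs. Mospd2 did not share this pattern. The deposited columns name no strain, so the alleles go by their column order as first-listed and second-listed. Over the rest of the X, the first-listed allele held 8.57% of allelic reads in deltaFT NPC, 18.4% in wild-type NPC and 48.7% in mESC, so this allele was the more closed one in either NPC line. These allelic shares are the values by which the genes were chosen and are given as a description.

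Ap1s2 had 21 reads of the first-listed and 534 of the second-listed allele in deltaFT NPC, 495 and 484 in wild-type NPC, and 356 and 383 in mESC. The wild-type peak lay at 160346383 to 160347361. As a share of allelic reads the first-listed allele made up 3.78% (2.36% to 5.73%) in deltaFT NPC, 50.6% (47.4% to 53.7%) in wild-type NPC and, for mESC, 48.2% (44.5% to 51.8%). The deltaFT interval lay below those of both other lines, which overlapped each other.

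Piga had 17 reads of the first-listed and 404 of the second-listed allele in deltaFT NPC, 595 and 545 in wild-type NPC, and 289 and 252 in mESC, with its wild-type peak at 160857303 to 160858188. The first-allele share was 4.04% (2.37% to 6.39%) in deltaFT NPC, 52.2% (49.2% to 55.1%) in wild-type NPC and, for mESC, 53.4% (49.1% to 57.7%). As at Ap1s2, the deltaFT line alone stood apart.

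Hccs had 10 reads of the first-listed and 335 of the second-listed allele in deltaFT NPC, 487 and 313 in wild-type NPC, and 307 and 328 in mESC, with its wild-type peak at 165757895 to 165758787. Its first-allele share was 2.90% (1.40% to 5.27%) in deltaFT NPC, 60.9% (57.4% to 64.3%) in wild-type NPC and, for mESC, 48.3% (44.4% to 52.3%). Hccs was thus the one gene of the 4 at which the first-allele share was higher in wild-type NPC than in mESC by more than counting error.

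Mospd2 went against the description of the window as a cluster of escape sites. It had 1 read of the first-listed and 24 of the second-listed allele in deltaFT NPC, 0 and 52 in wild-type NPC, and 37 and 39 in mESC. The first-allele share in deltaFT NPC was 4% (0.101% to 20.4%). In wild-type NPC it was 0 of 52 reads, with an exact interval of up to 6.85% and a limit of 5.77% if 3 counts are taken as the floor, and mESC had 48.7% (37% to 60.4%). Only 3.03% of its reads could be given to an allele in deltaFT NPC, 3.87% in wild-type NPC and 4.87% in mESC, against 43.0% to 58.9% at the other 3 genes, so the Mospd2 share rests on few reads. Its peak lay at 161418199 to 161418861 in wild-type NPC.

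**Figure D1:**
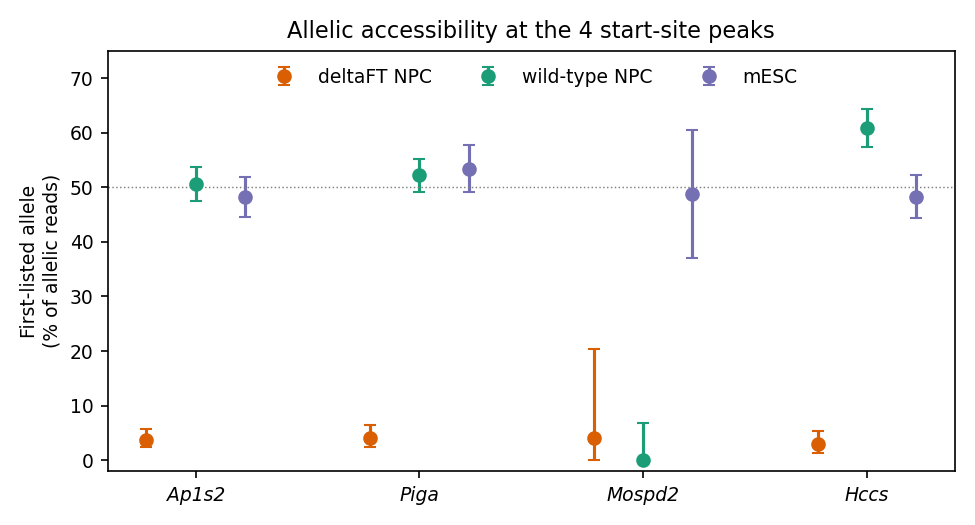
First-listed-allele share of allelic reads at the start-site peaks of Ap1s2, Piga, Mospd2 and Hccs, with points for deltaFT NPC, wild-type NPC and mESC (1 sample each) and bars for exact 95% intervals. The deltaFT points lie between 2.90% and 4.04%, the wild-type points between 50.6% and 60.9% except at Mospd2, where the wild-type point is 0, and all mESC points lie near the dotted line at 50%.

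The low deltaFT shares were in the range of sites that were closed on the first-listed X in wild type. Outside the window, 68 matched X peaks had under 5% first-allele reads in wild type and at least 100 allelic reads in each NPC line. In deltaFT NPC their first-allele share had a median of 2.48%, with quartiles of 1.46% and 4.62% and a highest value of 17.1%. Ap1s2, Piga and Hccs, with 3.78%, 4.04% and 2.90%, lay between these quartiles.

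Splitting each share into its alleles showed where reads were missing. Reads were scaled by the autosomal reads of the same allele in each line. The first-allele reads of deltaFT NPC were 0.0413 times those of wild-type NPC at Ap1s2 (0.0253 to 0.0639), 0.0278 times at Piga (0.0161 to 0.0449) and 0.0200 times at Hccs (0.00953 to 0.0371). Second-allele reads were near parity at Ap1s2, with a ratio of 1.01 (0.892 to 1.15), and at Hccs, with 0.980 (0.838 to 1.15). At Piga and Mospd2 the second-listed allele was lower as well, with ratios of 0.679 (0.596 to 0.774) and 0.423 (0.249 to 0.698). The Mospd2 ratio rests on 24 reads in deltaFT NPC and 52 in wild-type NPC. Its peak was called over 471 bp and 663 bp in these lines, and the ratios were not scaled by width. On the second allele the interval thus lay wholly below 1 at Piga and Mospd2 and took in 1 at Ap1s2 and Hccs.

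Total reads per 1000000 reads in autosomal peaks show the sum of both alleles. Ap1s2 had 106 in deltaFT NPC, 155 in wild-type NPC and 228 in mESC. Piga had 77.7 in deltaFT NPC, 206 in wild-type NPC and 162 in mESC. Mospd2 had 76.1, 125 and 253 in deltaFT NPC, wild-type NPC and mESC, and Hccs had 69.7, 173 and 218 in the same lines. Each start was lowest in deltaFT NPC, and Piga alone had more reads in wild-type NPC than in mESC. Peak intervals were called separately in each line and differ in width, and the reads were not scaled by width. The Mospd2 peak spanned 471 bp in deltaFT NPC, 663 bp in wild-type NPC and 750 bp in mESC. The Piga peak spanned 925, 886 and 715 bp in the same lines, so its higher reads in wild-type NPC than in mESC came with a wider peak.

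All 4 starts were called in both libraries of each female line. The library values that the authors give in the list of reproducible peaks, −log10 p, ran from 16.5 at Ap1s2 in library 2 of deltaFT NPC to 70.3 at Mospd2 in library 1 of wild-type NPC. At Hccs they were 39.8 and 28.9 in deltaFT NPC, 47.6 and 52.5 in wild-type NPC, and 31.7 and 63.6 in mESC. The separate library lists could not add a check in NPC. All 211 window rows of the deltaFT library 2 list and all 225 of the wild-type one were identical to those of library 1, while 0 rows were shared between the mESC libraries.

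Across the whole window, sites read from both alleles were fewer in deltaFT NPC than in wild-type NPC. A peak with at least 10 allelic reads is called usable, and read from both alleles if each allele held at least 20% of them. In deltaFT NPC 5 of 50 usable peaks, or 10.0% (3.33% to 21.8%), met this. The background over the rest of the X in that line was 10.1%. In wild-type NPC 36 of 66, or 54.5% (41.8% to 66.9%), were read from both, against 24.1% over the rest of the X. In mESC it was 54 of 56, or 96.4% (87.7% to 99.6%), against 94.6%. With a limit of 10% in place of 20%, the share was 36.0% (22.9% to 50.8%) in deltaFT NPC and 68.2% (55.6% to 79.1%) in wild-type NPC. No background over the rest of the X was taken at 10%, so these values do not show a trait of the window. At 20%, the window stood above the rest of the X in wild-type NPC alone; since it was picked for that, the excess is a description.

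Summed over usable peaks, the first-listed allele held 278 of the allelic reads and the second-listed 5018 in deltaFT NPC, a share of 5.25% (4.66% to 5.88%). In wild-type NPC they held 3720 and 5031 reads, or 42.5% (41.5% to 43.6%), and in mESC 4552 and 4495 reads, or 50.3% (49.3% to 51.4%). First-allele reads in the window were 0.0737 times the wild-type level in deltaFT NPC (0.0651 to 0.0832), next to 0.417 (0.404 to 0.431) over the rest of the X. Window peaks covered 31.2 kb in deltaFT NPC and 36.4 kb in wild-type NPC, with 9.08 and 103 first-allele reads per kb. Second-allele reads were 0.917 times the wild-type level (0.882 to 0.953) in the window and 0.931 (0.920 to 0.942) over the rest of the X. Under other scalings, or with peaks of both lists alone, the window value was 0.985 to 1.02. Near the 20% limit, the wild-type peak at 163.67 Mb had 22.5% first-allele reads and counted as read from both, while that at 163.24 Mb, with 15 of 79, did not. At 160.09 Mb a peak with 2 of its 10 allelic reads from the first-listed allele counted exactly at the limit.

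Sites open on both X chromosomes were not spread evenly along the window. In wild-type NPC they formed 2 dense stretches, the first from Ap1s2 to Piga and the second beyond a gap of 1727 kb. Farther on, the Hccs start was called read from both, while its nearest usable neighbours, with few allelic reads, were not. The stretches were drawn after the values were seen, from runs of at least 5 neighbouring usable wild-type peaks read from both alleles, joined across 1 peak that was not.

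The first stretch spanned 512 kb, from 160346383 to 160858188, with the Ap1s2 start at one end and the Piga start at the other. In deltaFT NPC both alleles were read at 2 of its 10 usable peaks, and the first-allele share was 3.78% (2.95% to 4.77%). In wild-type NPC 11 of 12 were read from both and the share was 48.8% (47.2% to 50.4%), and in mESC 11 of 11 with 50.3% (48.6% to 52.0%). The 1 wild-type exception lay at 160.47 Mb, with 7 of 43 allelic reads from the first-listed allele. At 160513980 to 160514702, the first-listed and second-listed alleles had 0 and 191 reads in deltaFT NPC, against 234 and 260 in wild-type NPC. At 160395768 to 160397111 they had 2 and 138 in deltaFT NPC, against 300 and 184 in wild-type NPC. Both sites thus had few first-allele reads in deltaFT NPC, as the gene starts did.

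Between the stretches, over 1727 kb that hold Mospd2, all 3 female lines had few open sites. There were 7 peaks in deltaFT NPC, 7 in wild-type NPC and 10 in mESC, or 4.05, 4.05 and 5.79 per Mb. The first stretch held 21.5, 25.4 and 25.4 per Mb in the same lines. In deltaFT NPC 0 of 3 usable peaks were read from both, in wild-type NPC 0 of 6 and in mESC 8 of 8. The first-allele share was 2.56% (0.703% to 6.43%) in deltaFT NPC, 9.61% (7.01% to 12.8%) in wild-type NPC and, for mESC, 46.2% (43.1% to 49.3%). Most first-allele reads in wild-type NPC, 40 of 42, came from the peak at 161800385 to 161801161. There the first-listed and second-listed alleles had 2 and 118 reads in deltaFT NPC, against 40 and 247 in wild-type NPC.

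The second stretch, from 162585429 to 162948699, was shorter, at 363 kb, and had more called peaks in NPC than in mESC. It held 18 peaks in deltaFT NPC, 23 in wild-type NPC and 8 in mESC. In deltaFT NPC 1 of 13 usable peaks was read from both X chromosomes, with a pooled first-allele share of 7.18% (5.92% to 8.61%). In wild-type NPC all 18 were, with single peaks at 25% to 75% and a pooled share of 51.1% (49.1% to 53.2%). In mESC 7 of 7 were, with 48.0% (45.4% to 50.7%). Here belong 3 of the wild-type sites with most allelic reads. At 162878237 to 162879019 the alleles had 10 and 231 reads in deltaFT NPC, against 216 and 204 in wild-type NPC. At 162917283 to 162918063 they had 8 and 253 in deltaFT NPC, against 234 and 133 in wild-type NPC, and at 162947970 to 162948699 they had 5 and 170, against 166 and 134. At all 3 the second-listed allele had more raw reads in deltaFT NPC. Scaled by autosomal reads of that allele, the ratio of deltaFT over wild-type NPC was 1.04 (0.856 to 1.26), 1.74 (1.41 to 2.17) and 1.16 (0.921 to 1.47) in the same order. Its interval lay above 1 at 162917283 alone. Of its wild-type peaks, 17 of 23 overlapped a deltaFT peak and 6 an mESC peak. Over the rest of the X, 53.7% of wild-type NPC peaks overlapped a deltaFT peak and 34.7% an mESC peak. Reading from both was thus not limited to sites with a called mESC peak. The mESC list rests on fewer reads, so a missing call there does not show that a site was closed.

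Ratios summed over a stretch, deltaFT over wild-type NPC, rest on peaks called separately in each line and on stretches drawn from wild-type values, so they are descriptions and no test of a difference between stretches. Peaks covered 6.37 kb of the first stretch in deltaFT NPC and 7.28 kb in wild-type NPC, and 8.82 and 11 kb of the second. First-allele reads per kb of peak were 10.7 in deltaFT NPC and 256 in wild-type NPC in the first stretch, and 12.2 and 107 in the second. The summed ratio of first-allele reads was 0.0355 (0.0275 to 0.0453) in the first stretch and 0.0897 (0.0730 to 0.109) in the second. Over matched peaks its median was 0.0443 of 9 in the first and 0.0541 of 11 in the second. The site at 162608151 had 31 and 240 reads of the first-listed and second-listed alleles in deltaFT NPC, against 99 and 140 in wild-type NPC. On the second-listed allele the summed ratio was 0.809 (0.758 to 0.864) in the first stretch and 1.14 (1.05 to 1.23) in the second. Single matched peaks went both ways in either, from 0.281 to 1.58 in the first and from 0.275 to 2.28 in the second. Between the stretches the second-allele ratio was 0.364 (0.301 to 0.439), a value that counts all peaks of each list.

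From the second stretch to Hccs, over 2809 kb, sites open on both X chromosomes were scattered. Both alleles were read at 2 of 20 usable peaks in deltaFT NPC, in wild-type NPC 5 of 25 and in mESC 25 of 26. Over the rest of the X the shares were 10.1%, 24.1% and 94.6% in the same lines, so these counts do not set this part apart. The first-allele share was 5.59% (4.45% to 6.92%) in deltaFT NPC, 12.1% (10.3% to 13.9%) in wild-type NPC and, for mESC, 54.5% (52.5% to 56.5%). The nearest usable wild-type peaks on either side of the Hccs start lay at 165.55 and 165.91 Mb. They had 2 of 12 (2.09% to 48.4%) and 1 of 13 (0.195% to 36.0%) allelic reads from the first-listed allele. Nearer peaks at 165.70 and 165.74 Mb had 7 and 1 allelic reads, too few to be usable. The Hccs start, with 487 and 313, was called read from both and these neighbours were not. Both intervals take in the 20% limit, so it is not shown that Hccs stood alone.

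**Figure D2:**
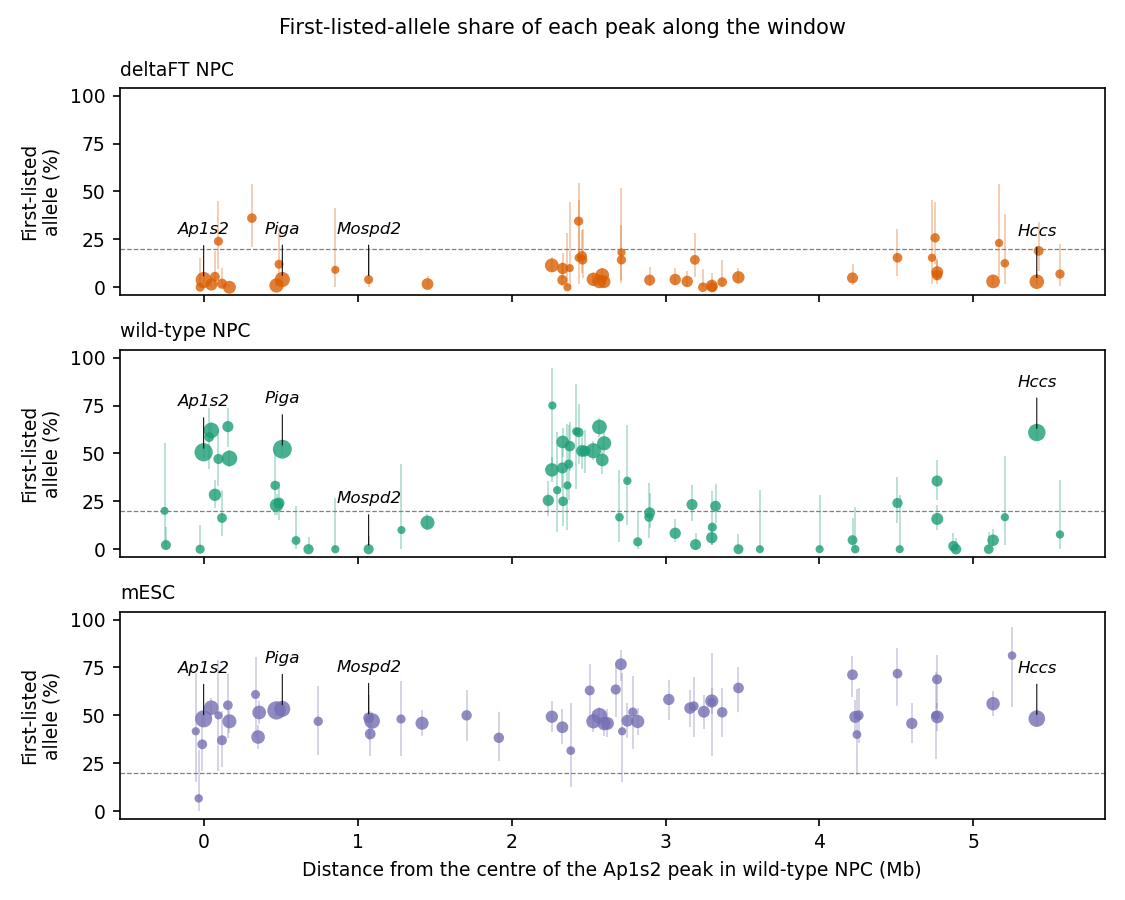
First-listed-allele share of each peak with at least 10 allelic reads, by distance in Mb from the Ap1s2 peak, for deltaFT NPC, wild-type NPC and mESC. Points grow with allelic reads, bars are exact 95% intervals, and the dashed line is the 20% limit; deltaFT points lie mostly low, wild-type points lie high from Ap1s2 to Piga, in a second stretch and at Hccs, and mESC points lie near 50%.

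Peak by peak, the window shares whose intervals did not overlap all shifted in 1 direction. Of 37 window peaks with at least 10 allelic reads in both NPC lines, 18, or 48.6% (31.9% to 65.6%), had a deltaFT interval below the wild-type interval and 0 above it. Over the rest of the X the backgrounds were 17.8% below and 3.56% above, and over the autosomes 6.33% and 3.77%. Among 22 read from both X chromosomes in wild type, 2 were still so in deltaFT NPC and 11 had under 5% first-allele reads. Over the rest of the X, 34 of 119 such peaks were still so and 59 had under 5%, with medians of 5.10% in deltaFT NPC and 42.2% in wild-type NPC. In the window the median share was 4.85% in deltaFT NPC and 49.0% in wild-type NPC. The median ratio of second-allele reads over these peaks was 0.972, running from 0.275 to 2.28.

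At 6 of the 22 the intervals of the NPC lines overlapped. These lay at 160.44, 160.84, 162.71, 162.72, 162.78 and 164.85 Mb and had few reads, 10 to 39 allelic reads in deltaFT NPC. The highest deltaFT share among them was at 162.78 Mb, with 10 of 29 allelic reads in deltaFT NPC, against 25 of 41 in wild-type NPC. Overlapping share intervals do not show that the lines were alike there. The ratio of first-allele reads had an interval wholly below 1 at 160.44, 160.84, 162.72 and 162.78 Mb, from 0.0278 (0.000685 to 0.166) at 162.72 Mb to 0.390 (0.167 to 0.840) at 162.78 Mb. The second-allele ratio was also wholly below 1 at 160.84 Mb, 0.336 (0.196 to 0.556), and at 162.72 Mb, 0.275 (0.115 to 0.594). Its interval took in 1 at 160.44 and 162.78 Mb. Lower first-allele reads at 160.84 and 162.72 Mb were thus not particular to that allele.

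**Figure D3:**
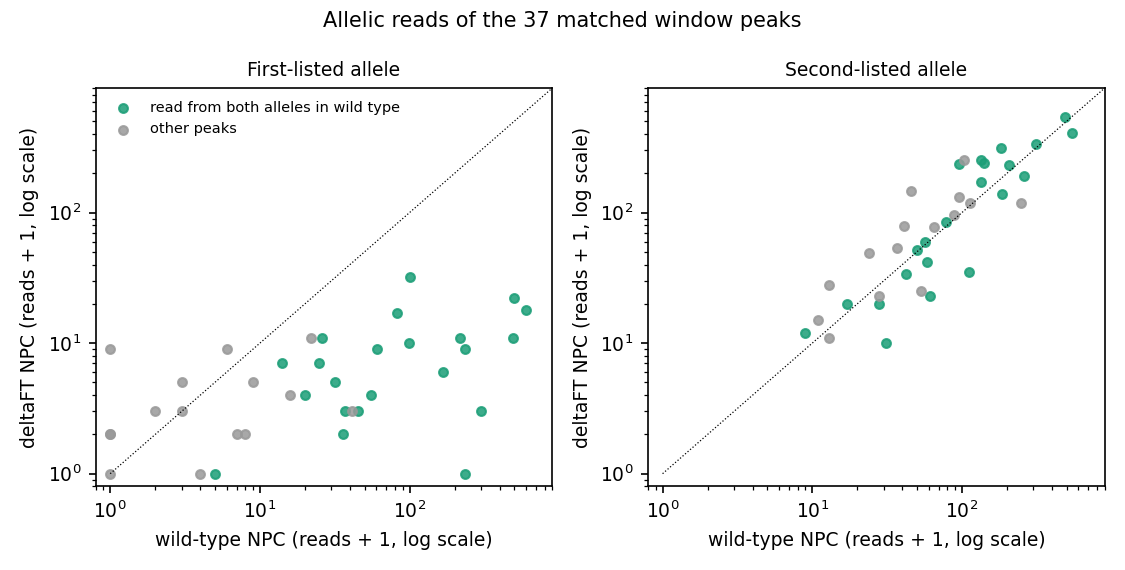
Allelic reads plus 1 of the 37 matched window peaks in wild-type NPC (x axis) and deltaFT NPC (y axis), both on log scales, for the first-listed allele on the left and the second-listed on the right. On the left the 22 peaks that both X chromosomes shared in wild type fall below the diagonal of equal raw reads, with 0 to 31 deltaFT reads; on the right the points scatter about it.

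**Figure D4:**
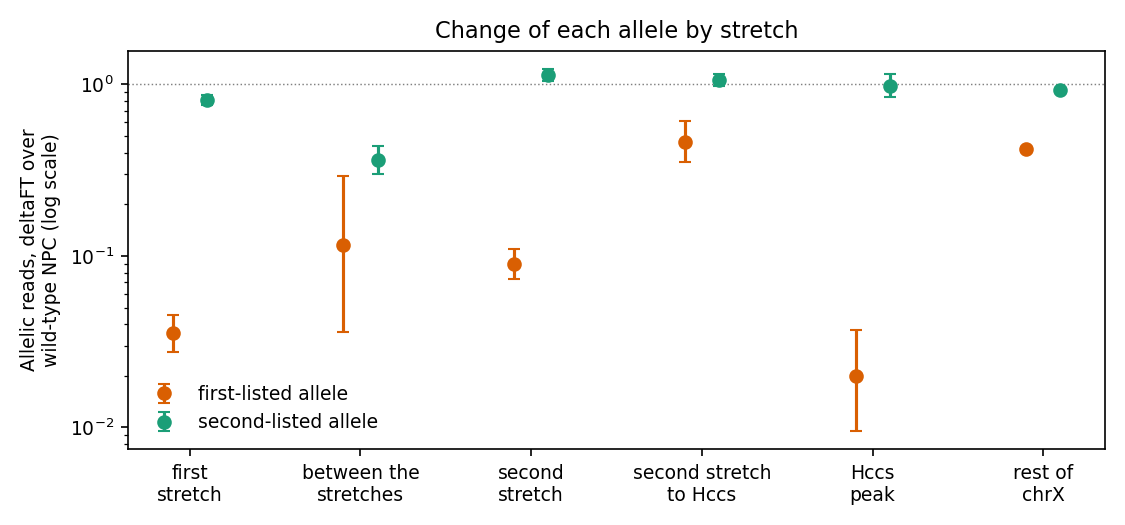
Ratio of allelic reads, deltaFT over wild-type NPC and scaled by autosomal reads of the same allele, on a log scale, by stretch, at the Hccs peak and over the rest of the X, with exact 95% intervals. The first-listed allele runs from 0.0200 at Hccs to 0.464 between the second stretch and Hccs, while the second-listed allele stays between 0.809 and 1.14 except between the stretches, at 0.364.

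The presence of peaks, apart from their alleles, was compared by overlap. Of the deltaFT window peaks 48 of 69, or 69.6% (57.3% to 80.1%), overlapped a wild-type NPC peak, next to 61.5% over the rest of the X. Of the wild-type window peaks 48 of 84, or 57.1% (45.9% to 67.9%), overlapped a deltaFT peak, next to 53.7%. Of the same 84 peaks 27, or 32.1% (22.4% to 43.2%), overlapped an mESC peak, next to 34.7%. In each case the value for the rest of the X lay inside the interval of the window.

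The 5 X peaks outside the window whose shares were nearest to the mean of Ap1s2, Piga and Hccs were found among 105 with at least 100 allelic reads in each female line. Likeness was the distance between the first-allele shares over the 3 lines. They lay at 130.59, 99.31, 71.54, 148.45 and 98.73 Mb, at distances of 4.92 to 6.37 percentage points. The nearest, at 130593524 to 130594190, had 4.29% in deltaFT NPC, 55.1% in wild-type NPC and 45.1% in mESC. Mospd2 had too few allelic reads to enter this measure.

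In TXY cells, where the single X carries the induced Xist, all 4 starts were open with and without dox in both genotypes. The lists hold no allele counts, and the fold enrichment and −log10 p are the authors' values, which rank peaks within a list and are not compared between lists. Ap1s2 had a fold enrichment of 10.0 with dox and 10.4 without it in deltaRepA cells, and 12.5 and 10.0 in wild type. At Piga the values were 15.4 with dox and 15.8 without it in deltaRepA cells, and 17.1 and 14.9 in wild type. Mospd2 had 15.0 and 17.1 in deltaRepA cells with and without dox, and 17.1 and 15.8 in wild type. For Hccs they were 13.7 and 13.2 in deltaRepA cells with and without dox, and 12.2 and 13.2 in wild type.

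Mospd2 was the strongest peak of the window by −log10 p in all 4 lists and Piga the second strongest. On the whole X, Mospd2 ranked 1 of 2442 peaks with dox and 1 of 2504 without it in deltaRepA cells, and 2 of 1462 and 2 of 2377 in wild type. Mospd2, at which few or no first-allele reads were seen in NPC, thus ranked high among X peaks of male mESC with and without dox.

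Other peaks of the window were lost with dox in wild type. In deltaRepA cells 138 of 185 no-dox peaks, or 74.6% (67.7% to 80.7%), were also found with dox, next to 75% over the rest of the X and 68.7% over the autosomes. In wild type 81 of 161, or 50.3% (42.3% to 58.3%), were, next to 55.9% and 62.1%. The wild-type value lay below the autosomal background by more than counting error, and its interval took in the rest of the X. Weighted to the strengths of the window peaks, the autosomal value was 74.4% in deltaRepA cells and 69.4% in wild type.

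Loss fell on weak peaks. In deltaRepA cells 20 of 50 window peaks with a −log10 p under 5 were kept, 55 of 71 from 5 to 10, 36 of 37 from 10 to 20, 14 of 14 from 20 to 40 and 13 of 13 at 40 or above. In wild type the counts over the same ranges were 8 of 45, 16 of 53, 25 of 30, 14 of 15 and 18 of 18. Over the rest of the X, wild type kept 16.1% under 5, 37.6% from 5 to 10 and 98.8% from 20 to 40. Over the autosomes it kept 31.3%, 66.4% and 99.9% in these ranges. Keeping the strong peaks was thus no trait of the window. The 20 strongest window peaks of the wild-type no-dox list were all kept, and the strongest lost one, at 164092776 to 164093267, ranked 25. Presence in a list therefore could not show a partial loss at the 4 starts, which belong to the strongest group.

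**Figure D5:**
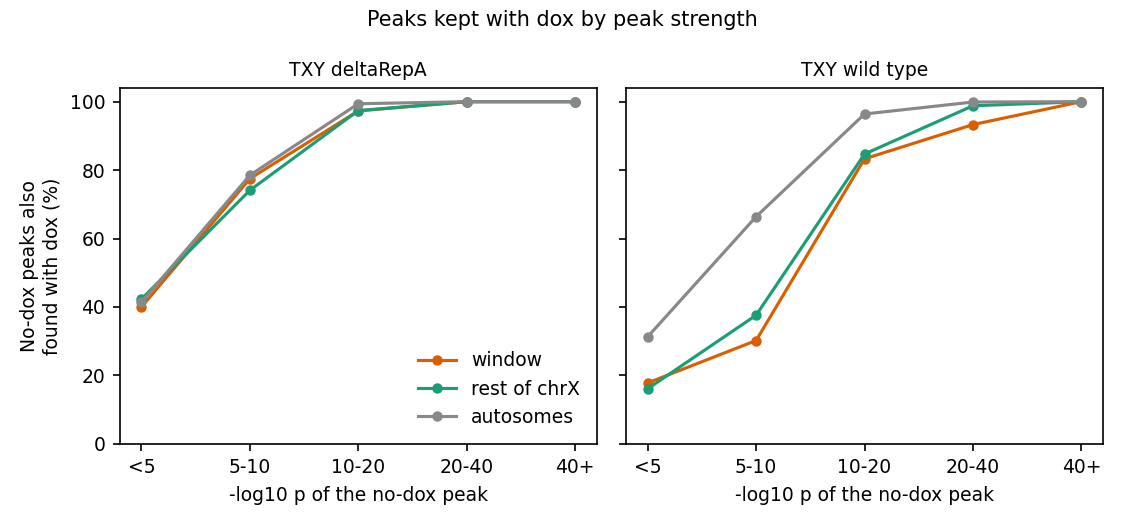
Percentage of no-dox peaks that the dox list also holds, in TXY deltaRepA (left) and TXY wild type (right), by −log10 p of the no-dox peak, for the window, the rest of the X and the autosomes. In deltaRepA the lines nearly coincide; in wild type the window and the rest of the X lie below the autosomes among weak peaks, 30.2% and 37.6% against 66.4% from 5 to 10, and all reach 100% at 40 or above.

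Both no-dox lists shared 137 wild-type window peaks. With dox, deltaRepA cells alone lacked 4 of them and wild type alone lacked 47, a share of 34.3%. The share lost in wild type alone was 22.8% over the rest of the X and 11.4% over the autosomes. The share lost in deltaRepA cells alone was 2.92% in the window, close to 2.82% over the rest of the X, and 7.05% over the autosomes. New peaks made up 42 of the 181 found with dox in deltaRepA cells, or 23.2%, next to 22% over the rest of the X and 37.2% over the autosomes. In wild type they made up 4 of the 85, or 4.71%, next to 7.70% and 30.6%. The 5 strongest window peaks of the wild-type no-dox list included Mospd2, Piga and Hccs. The others lay at 160819495 to 160820465, where wild-type NPC had 54 first-allele and 181 second-allele reads, and at 160707090 to 160707928, where wild-type NPC had no peak.

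In TXY, peaks that NPC read from both X chromosomes were set beside those mostly read from 1. In deltaRepA cells 20 of 21 and 11 of 13 were kept, with a median −log10 p of 20 and 20.9. Among wild-type no-dox peaks that overlapped a usable NPC peak, 18 of 20 of those read from both alleles were kept (68.3% to 98.8%) and 10 of 12 of the others (51.6% to 97.9%). Their median −log10 p was 26.7 and 29.9. The intervals overlap, which at these numbers does not show that the classes were alike. Window peaks with no NPC counterpart were weaker, with a median of 6.91 in wild type, and 51 of 122 of them were kept. These classes were not counted over the rest of the X. Along the window, TXY wild-type cells kept 10 of 20 peaks from Ap1s2 to Piga (27.2% to 72.8%) and 11 of 13 in the second stretch (54.6% to 98.1%). The medians were 8.71 and 14.8. Between the stretches they kept 14 of 30, and from the second stretch to Hccs 39 of 85. Wild type kept 50.3% over the whole window and 55.9% over the rest of the X. In deltaRepA cells 20 of 23 were kept from Ap1s2 to Piga and 15 of 16 in the second stretch. The wild-type intervals of both stretches overlap, and peak strength differed with the stretch. The part of peak strength in the result was not tested.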

How the data were processed

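ATAC-seq peak lists of 7 samples were analysed, 1 per group, with 50K cells per replicate per the labels, which give reads of 75 bp for the 3 female samples. The submitters' processing notes name cutadapt, Bowtie2, MACS2 and the build mm9. Their versions, their settings, duplicate removal, any Tn5 shift and how an allele was assigned: not given in the sources used here. Each female line has a deposited list of peaks reproducible between 2 libraries (IDR of at most 0.05) with a raw read count and 2 allele counts per peak, and 1 list per library. The sources used here do not say if the deposited counts pool the libraries. The TXY lists come from merged libraries; the lists deposited by the authors give fold enrichment (a ratio over local background), −log10 p and −log10 q, a score of 10 times −log10 p, and the summit offset. Titles were followed where other labels differ: the source name given for mESC is that of NPC, and plus-dox descriptions point to no-dox lists. Reads in peaks numbered 11.1 M, 11.0 M and 6.49 M in deltaFT NPC, wild-type NPC and mESC, of which 38.5% to 40.4% were allelic.

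Starts in the reproducible lists count from 0, as in the library lists, and were raised by 1. Overlap meant at least 1 bp (bedtools 2.31.1), and matched peaks were those of largest overlap. Peaks needed 10 allelic reads. Ratios carry exact conditional binomial intervals. Equal strength used 10 bins of −log10 p. Tables used scipy 1.17.1, pandas 2.3.3, numpy 2.4.6 and python 3.11.15; steps were tested on simulated data. Named peaks were the 4 starts, the 10 window peaks with most allelic reads in wild-type NPC, both-allele peaks whose NPC intervals overlap, the 5 strongest TXY wild-type no-dox peaks, any of the 20 strongest that were lost, and the 5 X peaks most alike. Peaks near the 20% limit, the exception in the first stretch, the neighbours of Hccs and the lost peak ranked 25 were chosen after their values were seen. The members, lists and window were chosen with earlier results of these data known.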

Additional observations from a re-analysis of the deposited data

Results flagged for a closer look

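The share of no-dox window peaks also found with dox stood 5.16 points above the median of the 19 autosomes in TXY deltaRepA and -14.0 points from it in TXY wild type. These values stand out because the genotypes lie on opposite sides of their autosomes. The deltaRepA window value of 74.6% lay inside the range of single autosomes, 62.2% to 75.8%, and the wild-type value of 50.3% below theirs, 54.2% to 67.0%. Pooled over autosomes, the difference was 5.90 points (-1 to 12) in deltaRepA and -11.8 points (-19.8 to -3.80) in wild type. The rest of the X also lay on opposite sides, with 75% against 68.7% in deltaRepA and 55.9% against 62.1% in wild type. With 1 list per condition, the difference was not tested. At equal peak strength the window kept 74.6% and the autosomes 74.4% in deltaRepA, and 50.3% and 69.4% in wild type.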

How the results depend on the processing

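Of 84 alternative values for 38 results, 67 lay within the 95% interval of the value reported and 17 lay outside it. The window's kept share in deltaRepA minus that of the rest of the X changed sign, from -0.400 points (-7.30 to 5.70) as counted to 1.40 points at equal peak strength, both within its interval. Asking 10% of reads from each allele in place of 20% gave 36.0% of window peaks read from both alleles in deltaFT NPC and 68.2% in wild-type NPC. Asking 30% gave 39.4% in wild-type NPC. No background over the rest of the X was taken at these limits. Among peaks within 50 kb of a gene start, the first-allele share was 3.60% in deltaFT NPC and 51.3% in wild-type NPC, and 0 and 80.0% of peaks were read from both. Without the 4 start-site peaks the wild-type share was 37.1%. With at least 20 allelic reads 100% of mESC peaks were read from both. The second-allele ratio of the window was 0.99 scaled by all autosomal reads and 0.985 scaled by second-allele reads of the rest of the X. With peaks found in both NPC lists alone, chosen after seeing the data, it was 1.02 and the first-allele ratio 0.0632, so whether the second allele lay below parity depended on the setting. Among no-dox peaks with a −log10 q of at least 5, 98.8% were kept with dox in deltaRepA and 77.4% in wild type, where the autosomes kept 97.5% and 92.6%. In library 1 lists 55.9% of deltaFT peaks were found in wild-type NPC and 25.4% of mESC peaks in wild-type NPC. The cause of these shifts was not tested. No paired analysis was possible because each group is 1 sample, and for the same reason no replicate could be left out. The number of allelic reads limits what single peaks can show, most of all at Mospd2.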

Other observations

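Of the 5 window peaks read from both alleles in deltaFT NPC, 3 overlapped no peak of the wild-type reproducible list, though all 3 overlapped a peak of its library 1. Of all deltaFT peaks, 69.6% in the window and 61.5% over the rest of the X overlapped a peak of that reproducible list. The library 1 list is longer, with 225 window peaks against 84, so an overlap with it is easier to meet. The 3 peaks are therefore not set apart by this count. These 3 lay at 160660061 to 160660230, with 13 and 23 reads of the first-listed and second-listed alleles, at 165097869 to 165098034, with 8 and 23, and at 165512956 to 165513287, with 3 and 10. In mESC, 2 usable window peaks were not read from both alleles. At 160.31 Mb 1 of 15 allelic reads came from the first-listed allele, and at 165.60 Mb 13 of 16. These peaks were named after their values were seen and rest on few reads.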
